A study of Homo sapiens with 12 samples.

Results

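The transcripts of 10 members of the TNF receptor superfamily other than the receptors for TNF-α itself were followed in HL-60/S4, a line of human leukemia cells at the promyelocyte stage: *CD40*, *FAS*, *LTBR*, *TNFRSF4* (OX40), *TNFRSF9* (4-1BB, CD137), *TNFRSF10A* and *TNFRSF10B* (the TRAIL receptors 1 and 2), *TNFRSF12A* (Fn14), *TNFRSF14* (HVEM) and *TNFRSF18* (GITR). They were chosen by symbol and matched by Ensembl identifier, and all 10 were found among the 58288 genes of the count table. The data comprised 12 libraries of total RNA depleted of ribosomal RNA, in 4 groups of 3, and each library came from its own flask of cells of 1 seed-lot at 8 passages. Undifferentiated cells (promyelocytes) and cells differentiated with 1 µM ATRA, all trans retinoic acid, for 4 days (granulocytes) received either TNF-α at 16 ng/mL or the same volume of water as vehicle. Exposure lasted 2 h, all 4 groups were kept in calcium-supplemented medium, and ATRA was present in both granulocyte groups. The cell types were treated in separate experiments, so cell type and experiment cannot be told apart, and differences in level between them are described without a test. All replicates are flasks of 1 cell line, so p-values measure the spread between flasks.

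Receptors of this superfamily are membrane proteins that bind trimeric ligands through cysteine-rich repeats. Those with a death domain, such as Fas and the TRAIL receptors, can assemble a complex of FADD and caspase-8, whereas the others recruit TRAF adaptors and the cIAP ubiquitin ligases and activate NF-κB, often through its noncanonical arm. CD40, OX40, 4-1BB and GITR are best known as costimulatory receptors of antigen-presenting cells or lymphocytes, and LTβR and Fn14 as receptors of stromal, epithelial and myeloid cells. NF-κB is the main transcription factor downstream of the TNF-α receptors.

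Since NF-κB reads short sites in DNA, the starts of the members are shown first. RefSeq windows (GRCh38.p14) from 250 bases before to 50 bases after a start were given for *FAS* with 3 starts and for *LTBR*, *TNFRSF14*, *TNFRSF18* and *TNFRSF9* with 1 start each. The remaining members were *CD40*, *TNFRSF4*, *TNFRSF10A*, *TNFRSF10B* and *TNFRSF12A*. The 10-letter NF-κB consensus was searched on both strands and was held by 5.91% of 35116 such windows. It occurred before the *TNFRSF9* start, where a match on each strand overlapped, before the *TNFRSF14* start, and before 1 of the 3 *FAS* starts. Each line below gives 30 bases, 5′ to 3′ on the gene's strand, with the matched letters in capitals.
TNFRSF9: gagctgtggtGGGAATTTCCCatgagaccc
TNFRSF14: tggactttggGGGGCTCCCCcttctacagg
FAS: ggtcgctggaGGGGGACCCCggttggagag

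The *TNFRSF9* stretch (chr1:7940894-7940923, minus strand) has its first capital 74 bases before the start and lies in a noncoding exon of 1 of 4 GENCODE v44 transcripts of the gene and outside the other 3. The *TNFRSF14* stretch (chr1:2556277-2556306, plus strand) begins its capitals 84 bases before the start and falls in an intron of 5 of 16 transcripts and outside the other 11. The *FAS* stretch (chr10:88991264-88991293, plus strand) begins its capitals 157 bases before that start, and is intronic in 38 of 61 transcripts, exonic in 8 and outside 15. No match was found in the windows of *LTBR* and *TNFRSF18* or of the other *FAS* starts. A match describes letters only. The matches were present before a gene whose transcripts rose in both cell types (*TNFRSF9*), before 1 of the starts of another (*FAS*) and before one that passed the test in neither (*TNFRSF14*).

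The libraries held 22829189 to 31895061 read pairs on genes. Values are given as CPM, the count scaled to 1000000 read pairs of library size, on which 3 counts correspond to 0.0941 to 0.131. The inhibitor gene *NFKBIA*, an early NF-κB target, had log2 fold changes of 3.91 in promyelocytes and 5.51 in granulocytes and was called in both. Primary granule and other promyelocyte marker genes (6 genes, led by *MPO*) summed to 7919 to 8487 CPM in promyelocytes with vehicle, 6483 to 7427 CPM in those with TNF-α, 2258 to 2514 CPM in granulocytes with vehicle and 2114 to 2318 CPM in those with TNF-α. Granulocyte differentiation genes (7 genes) summed, in the same order of groups, to 281 to 296, 345 to 361, 3919 to 4118 and 3535 to 3634 CPM. The first sum was thus lower after TNF-α in promyelocytes without overlap, and the second was higher in promyelocytes and lower in granulocytes. Their part in the receptors' responses was not tested. The specific granule genes *LTF*, *CAMP* and *MMP8* were at or near 0 in all groups. Of the 4 macrophage genes, *CD163* and *MRC1* were at or below 3 counts in every library and *CD14* had at most 12 counts, whereas *CSF1R* stood at 50.4 CPM in granulocytes given vehicle and at 31.2 CPM in those given TNF-α. The 5 lymphocyte genes summed to at most 6.57 CPM, with *MS4A1* at 0. The stromal gene *COL1A1*, at most 24 counts in any promyelocyte library, rose there from 0.0453 to 0.577 CPM (log2 3.55, edgeR adjusted p = 0.000781). With at most 3 counts in each vehicle library, it passed the filter on low counts only through its TNF-α libraries and so had to differ.

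Of the 10 receptors, 9 passed the filter on low counts in each cell type, and *TNFRSF18* passed in neither. In promyelocytes, 5 of the 9 increased after TNF-α (*CD40*, *FAS*, *TNFRSF4*, *TNFRSF9* and *TNFRSF10B*), 3 decreased (*LTBR*, *TNFRSF10A* and *TNFRSF12A*) and *TNFRSF14* did not pass the test. Over all 16250 genes tested, 14.8% were called, 8.15% as increased and 6.65% as decreased (1324 and 1081 genes, against 1378 and 1578 with all 12 libraries in 1 fit), by edgeR's quasi-likelihood test at a Benjamini-Hochberg adjusted p below 0.05. In granulocytes, 6 of the 9 increased, namely the same 5 and *TNFRSF12A*, none decreased, and *LTBR*, *TNFRSF10A* and *TNFRSF14* did not pass. There 49.2% of 16944 genes were called, 24.4% as increased and 24.8% as decreased. The median log2 fold change of the 9 receptors was 0.21 in promyelocytes and 0.81 in granulocytes, beside -0.01 and -0.00 over all genes tested. *CD40* and *TNFRSF4* passed the filter in promyelocytes only through their TNF-α libraries and so had to differ, as did *TNFRSF4* in granulocytes but for 1 vehicle library, which limits what these counts say. In RNA from whole cultures, a change in the share of cells that express a gene and a change in RNA per cell cannot be told apart.

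**Figure D1:**
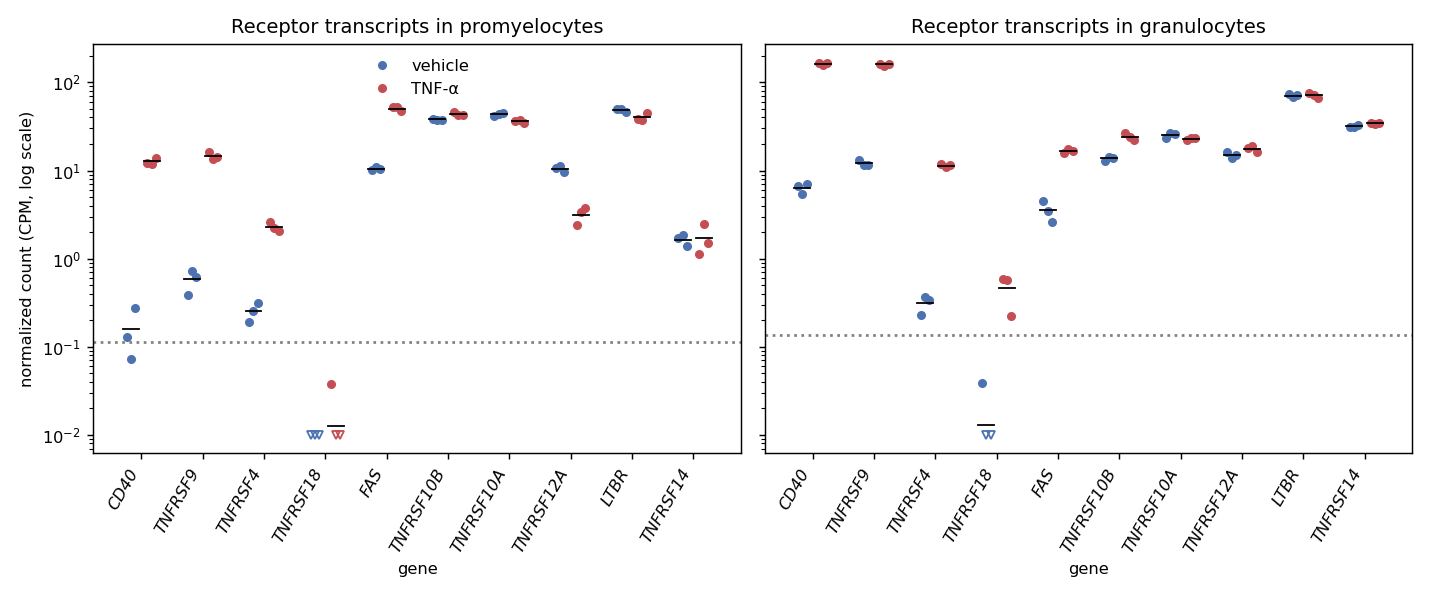
Normalized counts (CPM, log axis) of the 10 receptor genes in each of the 12 libraries, with promyelocytes on the left and granulocytes on the right. Points are libraries, black lines group means, open triangles at the lower edge libraries with a count of 0, and the dotted line is the level of 3 counts in the smallest library of the cell type, on the TMM scale of the plot. *CD40*, *TNFRSF9*, *TNFRSF4*, *FAS* and, by smaller changes, *TNFRSF10B* separate completely after TNF-α in both cell types. For *CD40* and *TNFRSF4* in promyelocytes the filter on low counts fixed this separation. *LTBR*, *TNFRSF10A* and *TNFRSF14* stay close to their vehicle level, although *LTBR* and *TNFRSF10A* separate in promyelocytes and *TNFRSF14* in granulocytes.

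Costimulatory receptors showed the largest responses. *CD40* (chr20:46118272-46129863, plus strand), the receptor through which T cells license antigen-presenting cells, was close to the limit of detection in vehicle-treated promyelocytes. Its 3 vehicle libraries held 4, 2 and 8 counts, or 0.128, 0.0733 and 0.278 CPM, and its 3 TNF-α libraries 324, 332 and 440 counts, or 12.3, 11.98 and 13.98 CPM. Every TNF-α library thus lay far above every vehicle library. No vehicle library reached the filter's cutoff, so the separation was fixed by the filter, which also limits the p-value and rank that follow. The mean rose from 0.160 ± 0.106 to 12.8 ± 1.07 CPM (SD, n = 3), a log2 fold change of 6.28 (SE 0.236, edgeR adjusted p = 7.43e-14), the 5th highest of all genes tested. The small vehicle counts make the size of this fold uncertain (77.7-fold, 95% interval 56.4 to 107), and without the third vehicle library, the one with 8 counts, the log2 value became 6.90.

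In granulocytes *CD40* was already expressed before treatment, at 6.70, 5.47 and 6.95 CPM, and reached 164.6, 159.0 and 167.9 CPM after TNF-α. The groups did not overlap, and the spread among the treated flasks was 4.49 CPM (SD, n = 3) around a mean of 163.8 CPM. This 25.7-fold rise (log2 4.69, SE 0.0712, edgeR adjusted p = 9.88e-36) started from a vehicle mean that was 39.9 times that of the promyelocytes. The fold was therefore smaller than in promyelocytes although the level reached was 12.4 times higher. The difference between the log2 responses was -1.56 (SE 0.335, adjusted p = 0.000972), and it was -2.17 without the third vehicle-treated promyelocyte library. Over all 18124 genes tested for such a difference, 24.0% were called, 14.1% with the higher value in granulocytes and 9.88% with the lower, and among the 9 receptors 6 were called, 4 and 2 respectively.

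*TNFRSF9* (chr1:7915894-7943165, minus strand), a costimulatory receptor induced on activated T cells, had the same order of groups. Vehicle-treated promyelocytes held 0.383, 0.733 and 0.624 CPM and TNF-α treated ones 16.0, 13.6 and 14.4 CPM. In granulocytes the vehicle libraries held 13.3, 11.6 and 11.6 CPM and the TNF-α libraries 161.7, 155.3 and 164.0 CPM. Both contrasts were without overlap, and untreated granulocytes lay about where treated promyelocytes did. The log2 fold change was 4.67 (SE 0.179, edgeR adjusted p = 1.07e-13) in promyelocytes and 3.72 (SE 0.0630, adjusted p = 3.15e-34) in granulocytes. The response was lower in granulocytes by a log2 difference of -0.91 (SE 0.203, adjusted p = 0.00138), so *CD40* and *TNFRSF9* were the 2 receptors called with the lower response in granulocytes.

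*TNFRSF4* (chr1:1211326-1214138, minus strand) encodes OX40, which sustains T cell responses. It differed from *CD40* and *TNFRSF9* in that both cell types started from nearly nothing. Vehicle libraries held 6 to 9 counts in promyelocytes and 6 to 11 counts in granulocytes, with means of 0.254 ± 0.0603 and 0.312 ± 0.0716 CPM (SD, n = 3). After TNF-α, promyelocyte libraries held 2.62, 2.20 and 2.06 CPM and granulocyte libraries 11.7, 10.9 and 11.4 CPM. Neither contrast overlapped, and the treated granulocytes lay above the treated promyelocytes in every library. In promyelocytes no vehicle library reached the filter's cutoff, so that separation was fixed by the filter. In granulocytes 1 vehicle library reached it. The log2 fold change was 3.16 (SE 0.319, edgeR adjusted p = 3.45e-07) in promyelocytes and 5.15 (SE 0.197, adjusted p = 7.43e-23) in granulocytes, a difference of 2.03 (SE 0.432, adjusted p = 0.000875).

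*TNFRSF18* (chr1:1203508-1206691, minus strand), which encodes the T cell receptor GITR, lies 4635 bases from *TNFRSF4* on the same strand. Promyelocyte libraries had 0, 0 and 0 counts with vehicle and 1, 0 and 0 counts with TNF-α, all below the 3 counts used as the floor, so no fold is given. Granulocyte libraries had 1, 0 and 0 counts with vehicle and 13, 16 and 5 counts with TNF-α. The treated granulocytes were thus the one group with more than 3 counts in each library. Summed over libraries, 34 counts against 1 count give a ratio of 36.7 per read pair assigned (exact 95% interval 6.15 to 1491, counting error only). Although the gene failed the filter, it was called in granulocytes when no filter was applied (log2 4.82, edgeR adjusted p = 9.45e-06) and by DESeq2 (log2 5.20, adjusted p = 0.000973). Without the first vehicle library, the only one with a count, the filter kept it and its fitted log2 value was 6.63, which depends on the prior count. The filter also kept it, and it was called, without the second vehicle library (log2 4.36), the third (log2 4.37) or the third TNF-α library (log2 5.16). In these fits it passed the filter only through its TNF-α libraries and so had to differ.

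Among the death domain receptors, the response was unequal. *FAS* (chr10:88990582-89015785, plus strand), which carries the death signal of Fas ligand, held 10.2, 10.99 and 10.3 CPM in promyelocytes with vehicle and 52.0, 52.3 and 47.0 CPM in those with TNF-α. In granulocytes it held 4.50, 3.50 and 2.63 CPM with vehicle and 15.6, 17.6 and 16.8 CPM with TNF-α. No library of one treatment reached the range of the other, and promyelocytes were the higher cell type under either treatment. The folds were 4.81 (95% interval 4.32 to 5.34) and 4.74 (95% interval 4.00 to 5.62), with log2 values of 2.26 (SE 0.0782, edgeR adjusted p = 1.83e-14) and 2.24 (SE 0.126, adjusted p = 9.58e-18). Their difference was 0.02 (SE 0.149, adjusted p = 0.953), with a 95% interval of 0.827 to 1.24 for the ratio of the folds. The *FAS* locus overlaps *ACTA2* on the other strand and the unnamed gene ENSG00000275693 on its own, and read pairs were counted by strand.

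*TNFRSF10B* (chr8:23020133-23069179, minus strand) encodes TRAIL receptor 2. Its promyelocyte libraries held 38.6, 37.7 and 37.8 CPM with vehicle and 46.6, 42.8 and 42.7 CPM with TNF-α. The groups did not overlap, but the change was small, 1.16-fold (95% interval 1.06 to 1.26), and the call (log2 0.21, SE 0.0645, edgeR adjusted p = 0.0322) was lost in 5 of 6 fits that left out a library and with all 12 libraries in 1 fit (adjusted p = 0.0629). Granulocyte libraries held 12.97, 14.4 and 13.96 CPM with vehicle and 26.5, 24.0 and 22.2 CPM with TNF-α. This 1.76-fold increase (log2 0.81, SE 0.0810, adjusted p = 9.10e-11) held in every fit run, and the granulocyte response exceeded the other by 0.64 (SE 0.103, adjusted p = 3.51e-05).

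*TNFRSF10A* (chr8:23190452-23225126, minus strand), 121273 bases further along the chromosome, encodes TRAIL receptor 1 and moved the other way in promyelocytes. It fell from 41.8, 44.1 and 45.4 CPM to 36.9, 37.9 and 34.9 CPM, without overlap. The log2 fold change was -0.26 (SE 0.0658, edgeR adjusted p = 0.00964), and 4 of 6 fits that left out a library kept the call, those without the second vehicle library (adjusted p = 0.0506) and without the third (adjusted p = 0.0511) losing it. In granulocytes the values were 23.6, 26.7 and 25.8 CPM with vehicle and 22.2, 23.7 and 23.4 CPM with TNF-α. These groups overlapped, and the log2 fold change of -0.14 (SE 0.0712, adjusted p = 0.110) did not pass unless the first vehicle library was left out (log2 -0.19, adjusted p = 0.0468). The responses of the 2 cell types were not shown to differ (0.16, SE 0.0928, adjusted p = 0.228, with a 95% interval of 0.986 to 1.27 for the ratio of the folds).

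*TNFRSF12A* (chr16:3018445-3022383, plus strand) encodes Fn14, the receptor of the cytokine TWEAK, and was the one receptor whose call had opposite signs in the 2 cell types. Promyelocyte libraries held 10.6, 11.4 and 9.68 CPM with vehicle and 2.40, 3.36 and 3.75 CPM with TNF-α. All treated libraries lay below all vehicle libraries, and the mean fell from 10.5 ± 0.840 to 3.17 ± 0.696 CPM (SD, n = 3). The log2 fold change of -1.72 (SE 0.149, edgeR adjusted p = 3.39e-08) was the 16th lowest of the 16250 genes tested. Granulocyte libraries held 16.4, 13.8 and 14.9 CPM with vehicle and 17.9, 18.8 and 16.3 CPM with TNF-α, so that the groups overlapped.

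The granulocyte increase of *TNFRSF12A* was small (log2 0.24, SE 0.0851, adjusted p = 0.0198). The call was lost with DESeq2 (adjusted p = 0.0794), with all 12 libraries in 1 fit (adjusted p = 0.0597), with trends of GC content and length removed (log2 0.09, adjusted p = 0.374), without the second vehicle library (adjusted p = 0.126) and without the second TNF-α library (adjusted p = 0.120). The difference between the cell types, 1.99 (SE 0.169, adjusted p = 9.76e-10), was called in every fit run and ranged there from 1.77 to 2.14. *TNFRSF12A* overlaps *CLDN6* on the other strand.

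*LTBR* (chr12:6375045-6391571, plus strand) encodes the lymphotoxin β receptor, which acts through noncanonical NF-κB, and lies beside *TNFRSF1A*, the gene of a TNF-α receptor. It fell in promyelocytes from 50.3, 50.4 and 45.6 CPM to 38.7, 37.8 and 44.4 CPM. The third library of each group came close to the other group, without overlap. The log2 fold change of -0.27 (SE 0.0721, edgeR adjusted p = 0.0130) lost its call without the first vehicle library (adjusted p = 0.0585), the second vehicle library (adjusted p = 0.0746) or the second TNF-α library (adjusted p = 0.0953). In granulocytes the values of 73.1, 67.6 and 71.8 CPM with vehicle and 76.5, 71.5 and 66.6 CPM with TNF-α overlapped. The fold there was 1.01 (95% interval 0.936 to 1.09, adjusted p = 0.853), and the 2 responses differed by 0.33 (SE 0.0980, adjusted p = 0.0155), a call lost with DESeq2 (adjusted p = 0.0501), without an expression filter (adjusted p = 0.0647) and in 3 of 12 fits that left out a library.

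*TNFRSF14* (chr1:2555639-2565382, plus strand) encodes HVEM, a receptor for the cytokine LIGHT and a ligand for the inhibitory receptor BTLA. Promyelocyte libraries held 1.69, 1.83 and 1.39 CPM with vehicle and 1.14, 2.49 and 1.49 CPM with TNF-α, and the treated libraries spread on both sides of the vehicle ones. In granulocytes the vehicle libraries held 31.6, 31.1 and 33.2 CPM and the TNF-α libraries 34.6, 33.9 and 34.5 CPM, which did not overlap. Neither change passed the test: the folds were 1.04 (95% interval 0.721 to 1.51, edgeR adjusted p = 0.912) and 1.07 (95% interval 0.987 to 1.17, adjusted p = 0.171). Granulocytes had 19.5 times the promyelocyte level with vehicle.

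Counted by overlap alone, the 3 TNF-α libraries were separate from the 3 vehicle libraries for 8 of the 9 tested receptors in promyelocytes and 6 of the 9 in granulocytes. *CD40* and *TNFRSF4* are among the 8, and their separation in promyelocytes was fixed by the filter. Such separation was found in 31.1% of all genes tested in promyelocytes (16.0% with TNF-α above and 15.1% below) and 55.2% in granulocytes (27.3% with TNF-α above and 27.9% below). With 3 against 3 libraries, an exact two-sided permutation test cannot give a p below 0.1, so the tests above rest on the spread estimated across all genes. The nearest tested genes beside the members that are not members themselves were 18 in each cell type, partly different genes. In promyelocytes 2 increased, 4 decreased and 12 were not called, where 8.15% and 6.65% of all genes tested increased and decreased. In granulocytes 7 increased, 6 decreased and 5 were not called, where 24.4% and 24.8% did. Nothing is read from these counts.

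**Figure D2:**
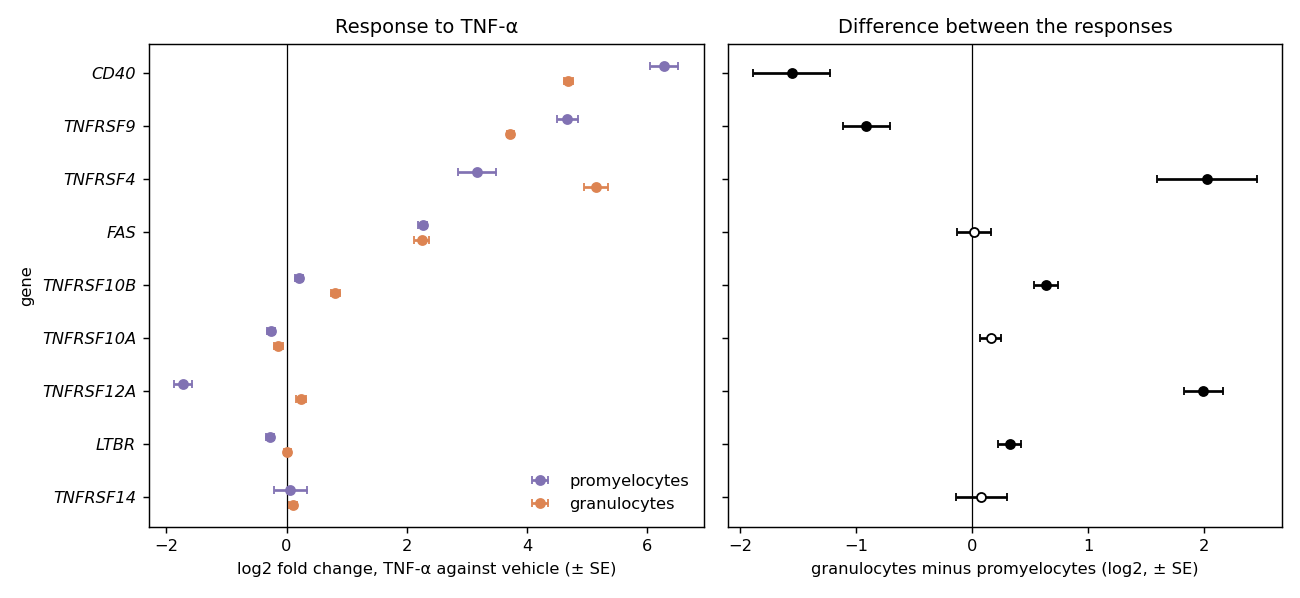
Left, log2 fold changes of the 9 tested receptors after TNF-α in promyelocytes and granulocytes. Right, the difference between these responses, granulocytes minus promyelocytes, filled where the adjusted p was below 0.05. Bars show ± SE, derived from the edgeR test. *FAS* has nearly equal values in the 2 cell types, *CD40* and *TNFRSF9* lie higher in promyelocytes, and *TNFRSF4*, *TNFRSF12A*, *TNFRSF10B* and *LTBR* lie higher in granulocytes.

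Levels of different receptors were compared per kilobase of exon length, on 1 scale over all 12 libraries. In vehicle-treated promyelocytes *TNFRSF10A* was the most abundant receptor transcript at 14.96 CPM per kilobase. *LTBR* (7.83) and *TNFRSF10B* (7.43) followed with overlapping libraries, then *TNFRSF12A* (5.75) and *FAS* (2.49), all in CPM per kilobase. *TNFRSF14* (0.265) was next, and *TNFRSF4* (0.149), *TNFRSF9* (0.0924) and *CD40* (0.0638) came last among those detected, each overlapping its neighbour in this order. The death domain receptors and Fn14 and LTβR thus made up nearly all of the receptor transcripts measured here. After TNF-α, *TNFRSF10A* (12.5) and *FAS* (11.9) led with overlapping libraries, ahead of *TNFRSF10B* (8.58), *LTBR* (6.46), *CD40* (5.08) and *TNFRSF9* (2.34). *TNFRSF12A* (1.72) and *TNFRSF4* (1.34) overlapped, and *TNFRSF14* (0.276) was above *TNFRSF18* alone.

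Vehicle-treated granulocytes had another order. *LTBR* led at 11.4 CPM per kilobase, followed by *TNFRSF10A* (8.67) and *TNFRSF12A* (8.21), which overlapped, and by *TNFRSF14* (5.18). *TNFRSF10B* (2.69) and *CD40* (2.54) also overlapped, and *TNFRSF9* (1.94), *FAS* (0.840) and *TNFRSF4* (0.183) were lower. TNF-α brought *CD40* to 63.2 and *TNFRSF9* to 24.7 CPM per kilobase, above all other members. Below them came *LTBR* (11.1), *TNFRSF12A* (9.32), *TNFRSF10A* (7.62), *TNFRSF4* (6.42), *TNFRSF14* (5.38), *TNFRSF10B* (4.58), *FAS* (3.82) and *TNFRSF18* (0.327), each separate from the next in all libraries. *FAS* thus stood second in TNF-α treated promyelocytes and ninth in TNF-α treated granulocytes with nearly the same fold response.

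Summed over the 10 receptors, the level was 39.0 ± 0.665 CPM per kilobase in promyelocytes with vehicle and 50.2 ± 0.331 after TNF-α (SD, n = 3). In granulocytes the sum was 41.6 ± 1.12 with vehicle and 136 ± 2.51 with TNF-α. The 4 groups did not overlap. *CD40* alone made up 0.164% of the sum in vehicle-treated promyelocytes, 10.1% after TNF-α, 6.10% in vehicle-treated granulocytes and 46.3% after TNF-α. *TNFRSF10A* went from 38.3% to 24.8% in promyelocytes and from 20.8% to 5.59% in granulocytes.

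**Figure D3:**
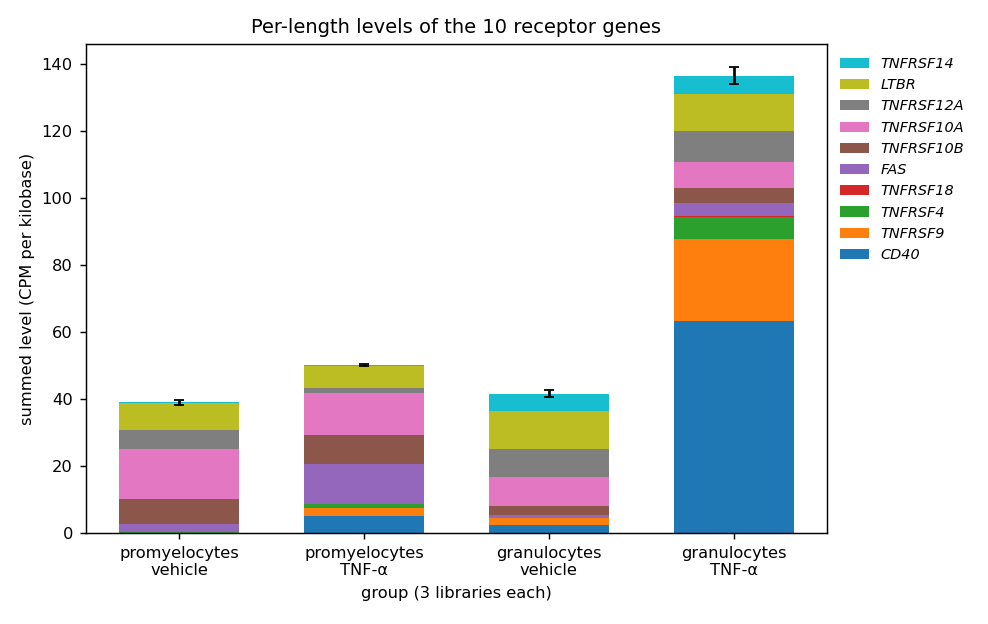
Per-length levels (CPM per kilobase of exon) of the 10 receptor genes stacked by group, as means of 3 libraries. Error bars show the SD of the sum. The 3 lower stacks lie between 39.0 and 50.2, and the stack of TNF-α treated granulocytes reaches 136, most of it *CD40* and *TNFRSF9*.

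Between the vehicle groups, granulocytes were higher in *CD40* (39.9 times), *TNFRSF9* (21.0 times), *TNFRSF14* (19.5 times), *LTBR* (1.45 times) and *TNFRSF12A* (1.43 times), and lower in *FAS*, *TNFRSF10B* and *TNFRSF10A*, of which promyelocytes held 2.96, 2.76 and 1.73 times as much. In none of these 8 did libraries overlap. *TNFRSF4* overlapped between the vehicle groups, at a ratio of 1.23. All 3 death domain receptors were thus on the lower side in granulocytes. *CSF1R* and the granulocyte differentiation genes were also higher in the granulocyte libraries, as given above, and their part in these ratios was not tested.

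The members' patterns were compared with those of 15392 other genes tested in both cell types, by Pearson's r of log2 CPM over the 12 libraries. These 12 points share 4 groups, so the values are descriptions. The genes most like *CD40* were *TNFAIP2* (r = 0.997), *IL6ST* (0.993) and the chemokine gene *CCL20* (0.993). *TNFRSF4* was most like *BAZ1A* (0.996), *MCTP1* (0.996) and *TRAF1* (0.994), and *TNFRSF9* most like *IFIH1* (0.996), *FMNL3* (0.995) and *CFLAR* (0.994). *TRAF1*, a TRAF family adaptor, and *CFLAR*, the inhibitor of caspase-8 activation, belong to the pathway lists described next. *FAS* was most like *PPTC7* (0.992), *UPF3B* (0.981) and *USP49* (0.979). For *TNFRSF10B* the first was *SEMA4A* (0.995), for *TNFRSF10A* *ZNF398* (0.988), for *LTBR* *AP5B1* (0.995) and for *TNFRSF14* *IFI6* (0.997). *TNFRSF12A* had the least close neighbours, ENSG00000274021 (0.966), *MIDN* (0.952) and *TRIB1* (0.949).

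Among the adaptors that these receptors recruit, of 9 TRAF, cIAP and related genes, 8 were tested in each cell type, and 7 increased in promyelocytes and 8 in granulocytes, where 8.15% and 24.4% of all genes tested did. The median log2 fold changes of the list were 0.81 and 1.73. *BIRC3*, the gene of cIAP2, went from 1.52 ± 0.209 to 73.6 ± 3.52 CPM in promyelocytes (log2 5.58, SE 0.101, edgeR adjusted p = 4.77e-19) and from 0.729 ± 0.169 to 231 ± 6.36 CPM in granulocytes (log2 8.31, SE 0.0939, adjusted p = 2.28e-39). *TRAF1* had log2 fold changes of 4.51 and 7.20, *TANK* of 1.24 and 1.21, and *TRAF3*, which restrains the noncanonical arm, of 0.77 and 2.33. Those of *TRAF4* were 0.86 and 2.25, of *BIRC2* 0.51 and 0.35, and of *TRAF6* 0.32 and 0.32. *TRAF2* was not called in promyelocytes (log2 0.03, adjusted p = 0.835) and increased in granulocytes (log2 0.85, adjusted p = 6.00e-14), and *TRAF5* had at most 5 counts in any library. Of the 4 genes of the noncanonical arm, 3 increased in promyelocytes and all 4 in granulocytes. *CHUK* had log2 fold changes of 0.26 and 0.13. *NFKB2* had log2 fold changes of 3.85 and 4.87 and *RELB* of 2.96 and 4.01, while *MAP3K14*, the gene of the kinase NIK, was not called in promyelocytes (log2 -0.17, adjusted p = 0.337) and increased in granulocytes (log2 0.58, adjusted p = 2.65e-07).

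Of the 8 genes of the death-inducing complex, all were tested, and 1 increased in promyelocytes and 3 in granulocytes, with none decreased and medians of 0.00 and 0.07. Over all genes tested, 8.15% and 24.4% increased, and nothing is read from these counts. *CFLAR* increased in both, from 96.1 to 223 CPM in promyelocytes (log2 1.21, SE 0.0631, edgeR adjusted p = 1.37e-11) and from 231 to 553 CPM in granulocytes (log2 1.26, SE 0.05005, adjusted p = 2.61e-22). The others called in granulocytes were *DAXX* (log2 0.51) and *FADD* (log2 0.24), the adaptor that joins Fas to caspase-8. *CASP8* had log2 fold changes of 0.00 (adjusted p = 0.992) and 0.02 (adjusted p = 0.806) at means of 79.3 to 118 CPM.

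Of 12 ligand genes of the members, 6 were tested in promyelocytes, where 4 increased and 1 decreased, and 5 in granulocytes, where 2 increased and 2 decreased. The shares over all genes tested were 8.15% increased and 6.65% decreased in promyelocytes, and 24.4% and 24.8% in granulocytes. *TNFSF10*, the gene of TRAIL, increased in both, from 12.7 ± 0.610 to 38.7 ± 1.11 CPM in promyelocytes (log2 1.61) and from 10.6 ± 0.471 to 44.9 ± 2.11 CPM in granulocytes (log2 2.08). *TNFSF9*, the ligand gene of 4-1BB, increased by 1.65 on the log2 scale in promyelocytes, from 2.14 to 6.72 CPM, and by 0.35 in granulocytes, from 31.6 to 40.1 CPM. *TNFSF14*, the gene of LIGHT, decreased by 0.62 on the log2 scale in promyelocytes, from 7.31 to 4.77 CPM, and by 0.44 in granulocytes, from 26.2 to 19.4 CPM. *LTA* and *LTB*, whose products bind the lymphotoxin β receptor together, increased in promyelocytes (log2 2.03 and 2.54). Their means rose from 0.163 and 0.629 CPM to 0.673 and 3.67 CPM. With a vehicle mean below the filter's cutoff of 0.354 CPM, *LTA* was tested only through its TNF-α libraries. It thus had to differ, which limits the count of 4 increased ligand genes. In granulocytes *LTB* was not called (log2 0.38, adjusted p = 0.306) and *LTA* had at most 9 counts. *TNFSF4*, the OX40 ligand gene, decreased in granulocytes (log2 -0.9997) and was not called in promyelocytes (log2 0.16, adjusted p = 0.816). *CD40LG* was at 0 in all 12 libraries, and *FASLG* and *TNFSF18* had at most 5 and 6 counts. *TNFSF12* was also listed at 0, and it shares exons with a readthrough gene, so its level is uncertain.

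Of 19 remaining receptors of the superfamily, 8 were tested in promyelocytes, where 0 increased and 2 decreased, and 9 in granulocytes, where 2 increased and 5 decreased. Over all genes tested, 8.15% increased and 6.65% decreased in promyelocytes, and 24.4% increased and 24.8% decreased in granulocytes. The decreased genes included both TNF-α receptors: *TNFRSF1A* fell from 129 ± 4.08 to 91.9 ± 5.40 CPM in promyelocytes (log2 -0.48, edgeR adjusted p = 6.61e-06) and from 208 ± 5.02 to 157 ± 9.83 CPM in granulocytes (log2 -0.41, adjusted p = 1.26e-08). *TNFRSF1B* decreased by 0.46 and 0.34 on the log2 scale. In granulocytes *TNFRSF8* (log2 -1.59), *NGFR* (-1.16) and *TNFRSF10C* (-1.82), a decoy receptor for TRAIL, also decreased, and *RELT* (0.57) and *TNFRSF10D* (0.41), another TRAIL decoy, increased. *TNFRSF10C* did not pass in promyelocytes (log2 -0.66, adjusted p = 0.0759). Of the 19, 8 were at 0 in all promyelocyte libraries and 7 in all granulocyte libraries, among them *TNFRSF6B*, which shares exons with a readthrough gene.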

How the data were processed

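The authors aligned paired-end reads of ribosome-depleted total RNA to hg38 with STAR 2.5.3a and counted read pairs per GENCODE gene with featureCounts 1.5.2, by strand (option 2) per the file headers, and they deposited raw counts without normalization. Library totals were 22829189 to 31895061, with a median of 28233190. The interval of the summed *TNFRSF18* count ratio and the floor of 3 counts cover counting error only. Intervals of folds and of ratios of folds were derived from the SE of the edgeR test, which includes the spread between flasks. Groups came from the labels. Symbols were matched for 57532 of 58288 identifiers.

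TNF-α was tested against vehicle within a cell type, in a fit of its 6 libraries. The tool was edgeR 4.0.16 (R 4.3.3) with TMM, filterByExpr (minimum count 10, minimum total 15), the quasi-likelihood test and Benjamini-Hochberg adjustment over all genes tested, threshold 0.05. The difference between responses was the interaction in 1 fit of 12 libraries. CPM use the cell type's own TMM sizes for TNF-α contrasts and those of all 12 libraries for levels per kilobase. Log2 fold changes use a prior count of 0.125. The fit was tested on simulated data. Replicates of a group differed by 3.59 to 14.1 times the sampling expectation (mean squared difference, 12 pairs), so each was kept as a sample of its own. Alternatives were DESeq2 1.42.0 or its size factors, no filter, a replicate block, GC content and length trends removed, all 12 libraries in 1 fit, and leaving out each library. Every member is named. In the lists of pathway genes, ligands and remaining receptors, all called genes are named. Other genes of these lists and the marker genes were named after their values were seen. For likeness, the 3 most correlated genes of each member were taken (prior count 2). The members and lists were chosen with earlier results of these data known. Plots used matplotlib 3.10.9.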

Additional observations from a re-analysis of the deposited data

Results flagged for a closer look

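For 6 of the 9 tested receptors, the response to TNF-α differed between granulocytes and promyelocytes by the interaction test in edgeR over all 18124 genes, of which 24.0% were called. The log2 response was higher in granulocytes for *TNFRSF4* by 2.03 (adjusted p = 0.000875), for *TNFRSF12A* by 1.99 (adjusted p = 9.76e-10), for *TNFRSF10B* by 0.64 (adjusted p = 3.51e-05) and for *LTBR* by 0.33 (adjusted p = 0.0155). It was lower in granulocytes for *CD40*, with a difference of -1.56 (adjusted p = 0.000972), and for *TNFRSF9*, with -0.91 (adjusted p = 0.00138). Cell type and experiment cannot be told apart in these differences. *TNFRSF12A* combined the 16th lowest promyelocyte log2 fold change with a small increase in granulocytes whose libraries overlapped.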

How the results depend on the processing

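The filter on low counts fixed the separation of *CD40* and *TNFRSF4* in promyelocytes, and of *TNFRSF4* in granulocytes but for 1 vehicle library. These calls are listed with the others below but are no support of their own. The calls of *CD40*, *FAS*, *TNFRSF4* and *TNFRSF9* in both cell types, of *TNFRSF10B* in granulocytes and of *TNFRSF12A* in promyelocytes held in every alternative. So did the differences between responses of *CD40*, *TNFRSF4*, *TNFRSF9*, *TNFRSF10B* and *TNFRSF12A*. The small changes did not: those of *LTBR*, *TNFRSF10A* and *TNFRSF10B* in promyelocytes, of *TNFRSF12A* in granulocytes and of *LTBR* between the cell types lost their call in at least 1 alternative, *TNFRSF10A* in granulocytes gained one without the first vehicle library, and the cause was not tested. Leaving out single libraries gave 1598 to 2475 called genes and 5 to 8 called receptors in promyelocytes, 7373 to 8010 and 5 to 8 in granulocytes, and 3604 to 4573 and 5 to 6 for the difference. The lowest promyelocyte counts, 1598 genes and 5 receptors, came without the second vehicle library. The granulocyte counts of called receptors include *TNFRSF18* in the fits whose filter kept it.

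Values that changed sign were all small and uncalled. With GC content and length trends removed, *LTBR* and *TNFRSF14* in granulocytes had log2 fold changes of -0.0352 and -0.0510 and the difference of *TNFRSF14* was -0.17. The difference of *FAS* was -0.0322 with DESeq2 size factors, -0.0649 without a filter and -0.0410 with DESeq2, and that of *TNFRSF14* was -0.0038 without a filter. Over fits that left out a library, *TNFRSF14* in promyelocytes ranged from -0.30 to 0.27, *LTBR* in granulocytes from -0.0338 to 0.0695, and the differences of *FAS* and *TNFRSF14* from -0.16 to 0.20 and from -0.12 to 0.44.

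Of the genes called for the difference, 2561 were higher in granulocytes and 1790 lower, against 2128 and 2266 with size factors, 1991 and 2518 without a filter, and 1945 and 2304 with DESeq2. Replicates with the same number did not deviate together (correlations -0.164 to -0.0541 in promyelocytes and -0.0789 to -0.0063 in granulocytes). A replicate block gave 1833, 7721 and 3349 called genes and 7, 6 and 6 called receptors in promyelocytes, in granulocytes and for the difference, and *TNFRSF10B* in promyelocytes was then not called (adjusted p = 0.0983). Depth limits *TNFRSF18* throughout, *CD40* in vehicle-treated promyelocytes and *TNFRSF4* in the vehicle groups of both cell types.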
